A study of Rattus norvegicus with 12 samples.

Results

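The ATF4 amino acid response was followed through 10 genes: the transcription factors Atf4, Atf3 and Ddit3, the biosynthetic enzymes Asns, Phgdh, Psat1 and Shmt2, and the stress outputs Trib3, Chac1 and Sesn2. They were taken by name, and the brightest probe that the platform table links to each gene was used. Probes were found for 9 of the 10 genes, and all 9 lay above the filter level for dim probes (a mean of 6.07 on the log2 scale). They stand among 14497 genes with a named probe, of which 10174 passed that filter. Sesn2, a sestrin that restrains mTORC1 when leucine is scarce, was not analysed here because the table links no probe to it.

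The samples were livers of Sprague Dawley rat fetuses taken by caesarean section at day 19 of a 21-day gestation. Control dams ate freely until then, and IUGR (intrauterine growth restriction) dams were fasted for the last 48 hr, from day 17, with 3 dams per diet. From each diet, total liver RNA and RNA of pooled polysome preparations were hybridised to Affymetrix Rat Gene 1.0 ST arrays, 3 arrays for each combination of diet and RNA, and the groups are named fed or fasted with total or polysome. Polysome RNA comes from sucrose gradient fractions and holds messages bound by several ribosomes. The labels call the arrays biological replicates but do not say whether each held 1 fetal liver or several, and the p-values measure the spread between these arrays. The design asks how fasting the dam altered the fetal hepatic transcriptome and translatome.

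When an amino acid runs short, uncharged tRNA activates the kinase GCN2, which phosphorylates the initiation factor eIF2. General initiation then slows, while the Atf4 message, whose upstream reading frames hold ribosomes back in fed cells, is translated more. ATF4 protein is a bZIP transcription factor that binds C/EBP-ATF response elements and raises genes of amino acid synthesis, amino acid uptake and tRNA charging, and the same factor is reached from endoplasmic reticulum stress through the kinase PERK. Much of its control is therefore at translation and is not measured by the level of its RNA, and liver is a tissue in which fasting, insulin and amino acid supply all bear on the targets. The array measures RNA, not eIF2 phosphorylation or protein.

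The core of the C/EBP-ATF response element was looked for in the RefSeq promoter windows of the rat GRCr8 build, from 250 bases before to 50 bases after each gene's start, because it is the sequence by which the members are usually grouped. Windows were found for 9 of the 10 genes (not for Atf3). The core TGATGNAA, searched on both strands, was present in the windows of Trib3 and Chac1, and in 3.98% of the 33469 promoters in the table. The cyclic AMP response element TGACGTCA (in 1.83% of promoters) and the endoplasmic reticulum stress response element (in 0.0657%), also searched on both strands, were not among the letters of any of the 9 windows. The Trib3 window is chr3:161275484-161275783 on the minus strand, and its match begins 21 bases before the gene's start. The Chac1 window is chr3:126795881-126796180 on the plus strand, and its match begins 167 bases before the start. Both are printed 5′ to 3′ in the direction of the gene, with the match in capitals as it reads on that strand, because they are the members' windows that hold a match.
Trib3: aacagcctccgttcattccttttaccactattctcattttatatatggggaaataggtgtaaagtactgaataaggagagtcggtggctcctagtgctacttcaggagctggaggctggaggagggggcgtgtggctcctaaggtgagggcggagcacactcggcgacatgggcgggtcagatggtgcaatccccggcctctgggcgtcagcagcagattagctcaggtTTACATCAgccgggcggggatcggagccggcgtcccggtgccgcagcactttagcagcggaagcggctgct
Chac1: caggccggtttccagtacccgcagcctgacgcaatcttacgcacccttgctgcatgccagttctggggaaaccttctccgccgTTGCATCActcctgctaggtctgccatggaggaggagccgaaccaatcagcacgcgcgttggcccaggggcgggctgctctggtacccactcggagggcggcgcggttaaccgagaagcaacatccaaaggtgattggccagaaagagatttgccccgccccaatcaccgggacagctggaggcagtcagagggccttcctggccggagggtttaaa
A match is a description of these letters and not evidence of binding, and its absence from the other windows says nothing about the factor. The matches read TTACATCA in Trib3 and TTGCATCA in Chac1. Levels of these genes correlated at a Pearson r of 0.38 over the 12 arrays.

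All values are log2(intensity + 1), changes are differences on that scale, each ± its standard error (SE) from the limma model, and every group holds 3 arrays (n = 3). Adjusted p is limma's with Benjamini-Hochberg adjustment over 10174 genes, and a gene is called when it is under 0.05. An exact permutation test of 3 arrays against 3 cannot give a two-sided p under 0.1, so none is reported for single genes. All 10 hepatocyte markers and all 7 erythroid markers with a probe were above the filter level, and their summed levels spanned 16.79 to 16.86 and 15.68 to 15.78 log2 over the 6 total arrays. Exocrine pancreas markers set fed total array 1 apart: their sum over 14 genes was 12.22 there, 11.05 in fed total 3, and 9.98 to 10.57 in the other 10 arrays. Macrophage markers (10 genes) summed to 12.91 to 13.00 in fed total and 13.10 to 13.24 in fasted total arrays, and endothelial markers (7 genes) to 12.34 to 12.43 and 12.56 to 12.59. On polysomes these sums were 12.33 to 12.45 in fed and 12.57 to 12.58 in fasted arrays for macrophages, and 11.80 to 11.84 and 11.88 to 11.98 for endothelium. Mesenchymal and stellate markers (10 genes) overlapped between the diets, at 12.98 to 13.14 and 13.02 to 13.15 in total RNA and 12.36 to 12.53 and 12.39 to 12.52 on polysomes. Single markers passed for fasting by limma: the endothelial genes Esam and Pecam1 rose and the pancreatic Cpa1 fell in total RNA (2 of 7 and 1 of 10 tested, 28.6% and 10%). On polysomes the macrophage genes C1qb and Cd68 and the mesenchymal or stellate genes Dcn and Lrat rose (2 of 10 each, 20.0%). The medians of these lists on polysomes were 0.13 and 0.07. Some markers went the other way from the called ones of their list without passing. Col1a1 (-0.33) and Col3a1 (-0.25) were lower on polysomes, and the pancreatic Cpb1 was higher in total RNA (0.73, list median -0.85). Over all tested genes 1.03% passed in total RNA and 2.01% on polysomes. Their part in the differences reported here was not tested, and in bulk liver fewer cells of a type and less RNA per cell cannot be told apart.

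**Figure D1:**
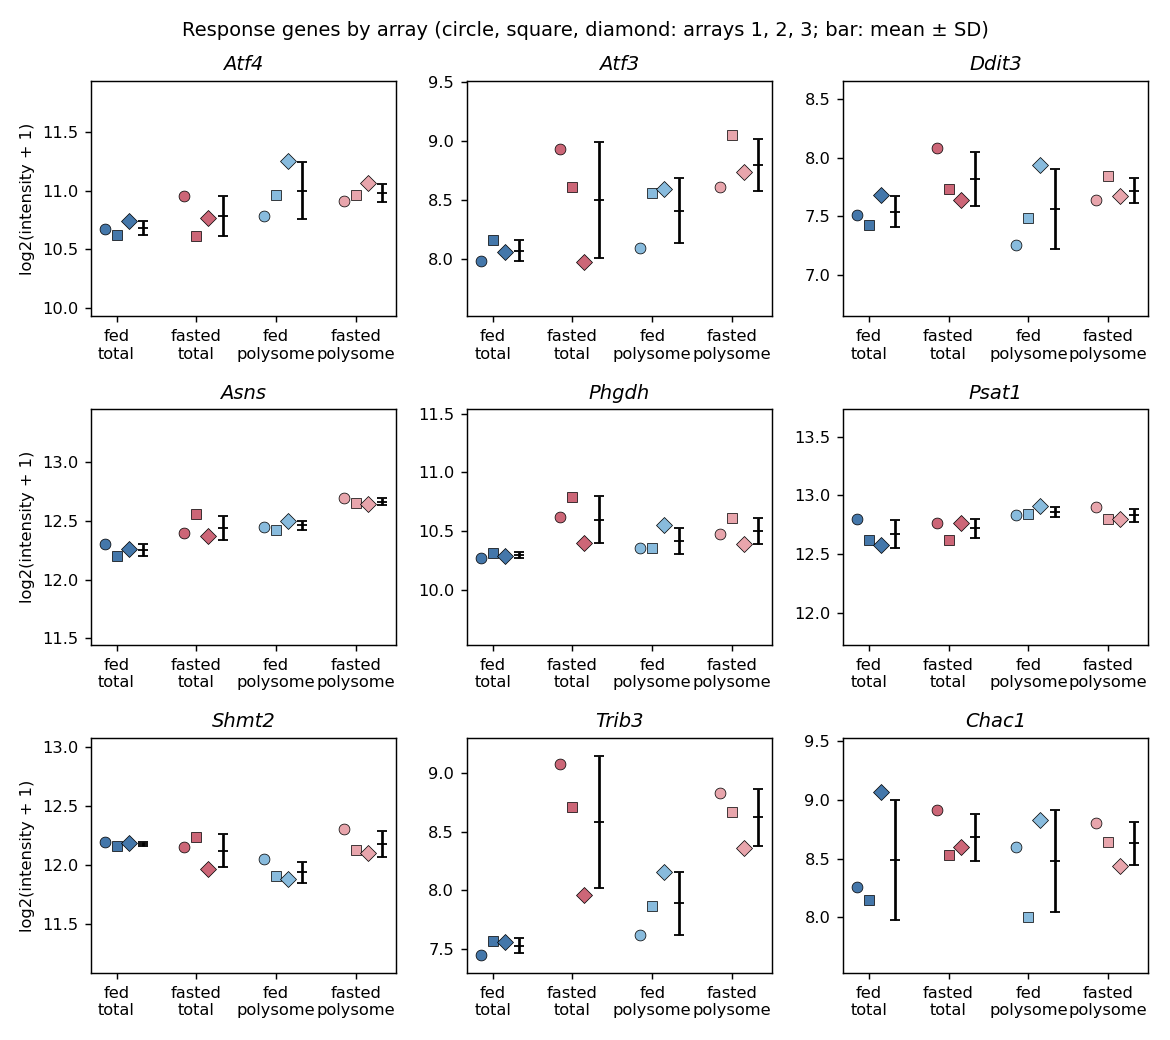
Level of each of the 9 genes on every array, as log2(intensity + 1), with the mean and SD (n = 3) beside the points; every panel spans 2 log2 units. Trib3 sits at 7.45 to 7.57 in fed total arrays and at 7.96 to 9.07 in fasted total arrays, whereas Atf4 and Psat1 overlap between diets in both fractions.

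The first comparison asked which members differed between fasted and fed dams in total liver RNA. Trib3, a pseudokinase that binds ATF4 and AKT and damps both, was the 1 member of 9 that passed, against 1.03% of all tested genes. It measured 7.45, 7.57 and 7.56 in fed total arrays 1 to 3, and 9.07, 8.71 and 7.96 in fasted total arrays 1 to 3. Every fasted array lay above every fed array, but fasted array 3 was closer to the fed arrays than to the other fasted ones. Trib3 rose 2.08-fold (1.05 ± 0.22 SE, 95% interval 0.58 to 1.53, limma adjusted p = 0.0429), rank 83 of 10174 genes by p. That SE is pooled over the total and polysome groups, which are assumed to share the same spread and to be independent. The SD of Trib3 was 0.065 in fed total and 0.56 in fasted total arrays, and the interval and p-value do not allow for this inequality. With only the total arrays fitted, the difference was 1.05 ± 0.24 SE and the call was lost (limma adjusted p = 0.0874).

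The Trib3 call rested on several arrays. Leaving out fasted total 1 gave a difference of 0.81 (limma adjusted p = 0.147), and leaving out fasted total 2 gave a limma adjusted p of 0.135. The limma adjusted p was 0.132, 0.089 and 0.104 when fed total 1, 2 or 3 was dropped. Dropping a polysome array, which bears on the shared variance, gave 0.0611 for fed polysome 2, 0.0509 for fasted polysome 1 and 0.0507 for fasted polysome 2. Without fasted total 3 the difference was 1.36 (limma adjusted p = 0.00726). Without fed total 1 and fed total 3 together, the arrays with the highest pancreas markers, it was 1.01 (limma adjusted p = 0.437, with the lone fed total array assumed to vary like the other groups). The size of the difference thus stayed between 0.81 and 1.36 in the 12 fits that left out 1 array, and the call was lost in 8 of them.

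None of the 3 transcription factors passed in total RNA. Atf4 measured 10.67, 10.62 and 10.74 in fed total and 10.95, 10.61 and 10.77 in fasted total arrays, and the groups overlapped. Its difference was 0.10 ± 0.11 SE (95% interval -0.15 to 0.35, limma adjusted p = 0.732), so the interval reaches at most 0.35 log2 upward. Ddit3, which encodes CHOP, a bZIP partner tied to cell death under prolonged stress, measured 7.51, 7.43 and 7.68 in fed total and 8.08, 7.73 and 7.64 in fasted total arrays. Fasted array 3 fell within the fed range, and the difference was 0.28 ± 0.15 (limma adjusted p = 0.395). Atf3, a stress-induced bZIP repressor, measured 7.98, 8.16 and 8.06 in fed total and 8.93, 8.61 and 7.97 in fasted total arrays. Here too fasted array 3 sat with the fed arrays while the other 2 stood above them (0.43 ± 0.20, limma adjusted p = 0.313).

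Among the enzymes, Asns and Phgdh separated the diets in total RNA without passing the threshold. Asns, which makes asparagine from aspartate and glutamine, measured 12.30, 12.20 and 12.26 in fed total and 12.40, 12.56 and 12.37 in fasted total arrays, with no overlap. Phgdh, the entry enzyme of serine synthesis from glycolysis, measured 10.27, 10.32 and 10.29 in fed total and 10.62, 10.79 and 10.40 in fasted total arrays, also with no overlap. The Phgdh difference was 0.31 ± 0.099 SE (95% interval 0.09 to 0.52, limma adjusted p = 0.146). Asns and Phgdh with Trib3 make 3 of 9 members whose groups did not overlap, against 24.7% of all tested genes, and 3 of 9 had an unadjusted p under 0.05, against 16.2%.

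Psat1, the transaminase that follows Phgdh, and Shmt2, the mitochondrial enzyme that splits serine into glycine and a one-carbon unit, overlapped between the diets. Psat1 measured 12.80, 12.62 and 12.58 in fed total and 12.77, 12.62 and 12.77 in fasted total arrays (0.05 ± 0.077, limma adjusted p = 0.793). Shmt2 measured 12.20, 12.16 and 12.19 in fed total and 12.15, 12.24 and 11.97 in fasted total arrays (-0.06 ± 0.086, limma adjusted p = 0.795). The intervals of both differences, -0.11 to 0.22 and -0.25 to 0.13, both end below the difference measured for Trib3. Chac1, an enzyme that breaks down glutathione, had the widest spread of the members in fed livers: 8.26, 8.15 and 9.07 in fed total and 8.91, 8.53 and 8.60 in fasted total arrays. Fed total 3 was the highest of all 6 arrays, and the difference was 0.19 ± 0.24 (95% interval -0.32 to 0.69, limma adjusted p = 0.764). Over the 9 members, 8 differences were above 0 and the median was 0.19, beside 50.2% above 0 and a median of 0.001 over all tested genes. Psat1 is counted above 0 here, but a dimmer probe of that gene gave -0.11.

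**Figure D2:**
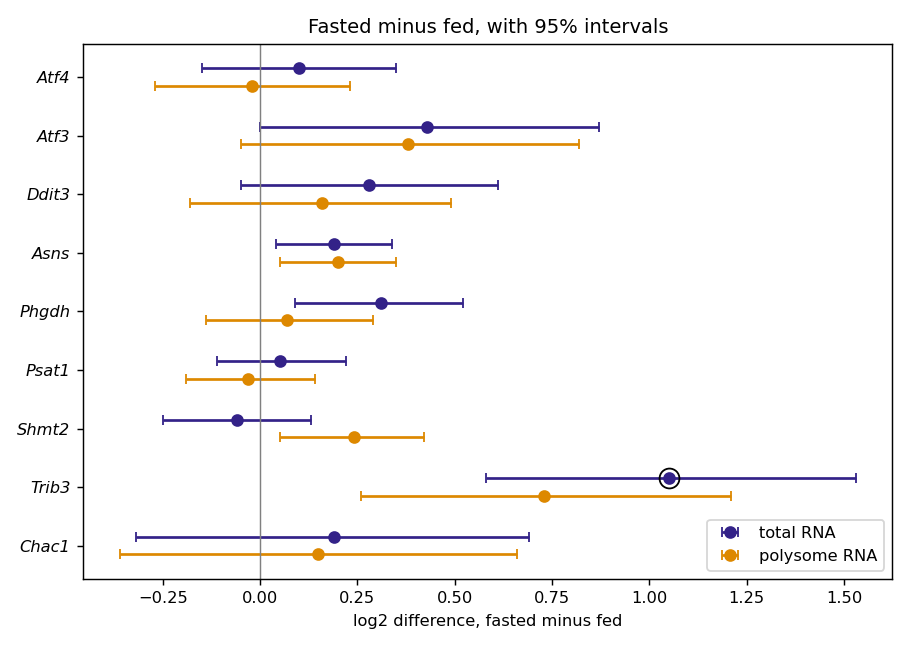
Difference between fasted and fed dams for each gene in total and polysome RNA (points, log2) with 95% intervals of the limma fit; the ring marks the call at an adjusted p under 0.05. Trib3 has the largest differences of the 9 genes in both fractions, 1.05 and 0.73, and only its difference in total RNA is ringed.

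The second comparison asked the same of RNA on polysomes. There, 0 of 9 members passed by limma, against 2.01% of all tested genes (1.59% called higher), and 3 of 9 had an unadjusted p under 0.05, against 20.9%. Trib3 measured 7.62, 7.87 and 8.16 in fed polysome and 8.83, 8.67 and 8.36 in fasted polysome arrays, with no overlap. The difference was 0.73 ± 0.22 SE (95% interval 0.26 to 1.21, limma adjusted p = 0.0908), and it passed in 1 of the 12 fits that left out 1 array, without fasted total 3 (limma adjusted p = 0.0337). Array 3 was again the lowest of the fasted group, as in total RNA.

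Asns showed the same small separation on polysomes as in total RNA. It measured 12.45, 12.42 and 12.50 in fed polysome and 12.69, 12.65 and 12.64 in fasted polysome arrays (0.20 ± 0.07, 95% interval 0.05 to 0.35, limma adjusted p = 0.131). The groups did not overlap in either fraction, and the difference reached the threshold in neither. Shmt2 measured 12.05, 11.91 and 11.88 in fed polysome and 12.31, 12.13 and 12.10 in fasted polysome arrays (0.24 ± 0.086, limma adjusted p = 0.145). It separated the diets on polysomes, where in total RNA it did not. Atf3 also separated them, with 8.09, 8.56 and 8.59 in fed polysome and 8.61, 9.05 and 8.74 in fasted polysome arrays (0.38 ± 0.20, limma adjusted p = 0.305). With Trib3, Asns and Shmt2, Atf3 makes 4 of 9 members without overlap, against 20.8% of all tested genes.

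The Atf4 message itself showed no separation on polysomes. It measured 10.78, 10.96 and 11.25 in fed polysome and 10.91, 10.96 and 11.06 in fasted polysome arrays, the fasted arrays lying within the fed range. The difference was -0.02 ± 0.11 SE (95% interval -0.27 to 0.23, limma adjusted p = 0.941). Ddit3 measured 7.26, 7.49 and 7.94 in fed polysome and 7.64, 7.84 and 7.67 in fasted polysome arrays (0.16 ± 0.15, limma adjusted p = 0.614). Chac1 measured 8.60, 8.0 and 8.83 in fed polysome and 8.80, 8.64 and 8.44 in fasted polysome arrays (0.15 ± 0.24, limma adjusted p = 0.768). For these genes the spread within the fed polysome group was the wider one, with an SD of 0.34 for Ddit3 and 0.43 for Chac1 against 0.11 and 0.18 in fasted arrays. Phgdh and Psat1 overlapped on polysomes, at 0.07 ± 0.099 and -0.03 ± 0.077 (limma adjusted p = 0.724 and 0.876). Over the 9 members, 7 differences were above 0 and the median was 0.16, beside 54.0% above 0 and a median of 0.016 over all tested genes. Psat1 is counted below 0 here, but its dimmer probe gave 0.21.

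Whether fasting acted differently on the 2 fractions was tested as the difference between the fasting effects. It passed for 0 of 9 members and for 0 of 10174 genes by limma, 0.0% of those tested, with 1 member and 549 genes (5.4%) at an unadjusted p under 0.05. That member was Shmt2, at 0.30 ± 0.12 SE (95% interval 0.03 to 0.56, unadjusted p = 0.0302, limma adjusted p = 0.856). For Trib3 the fasting effect was 0.32 lower on polysomes than in total RNA, with a 95% interval of the difference from -1.0 to 0.35 (limma adjusted p = 0.908), and for Phgdh it was 0.23 lower, from -0.54 to 0.07 (limma adjusted p = 0.866). For Atf4 the interval ran from -0.47 to 0.23. The difference was above 0 for 2 of 9 members, against 53.3% of all tested genes. Psat1 is counted below 0 here, but its dimmer probe gave 0.32.

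Polysome RNA was also compared with total RNA within each diet. The fractions were extracted in different ways, so a difference can hold that step as well as ribosome loading, and these cannot be told apart. In fed dams, 3 of 9 members passed against 43.5% of all tested genes, Asns and Atf4 higher and Shmt2 lower on polysomes. For Asns, the fed polysome arrays at 12.42 to 12.50 all lay above the fed total arrays at 12.20 to 12.30 (0.21 ± 0.07, limma adjusted p = 0.0273). For Atf4, 10.78 to 11.25 stood against 10.62 to 10.74 (0.32 ± 0.11, limma adjusted p = 0.0379). For Shmt2, 11.88 to 12.05 stood against 12.16 to 12.20 (-0.24 ± 0.086, limma adjusted p = 0.0393). In 6 of 9 members the groups did not overlap, against 52.9% of all tested genes, and in 5 of them polysome RNA was the higher, against 29.4%. One of the 5 was Psat1, whose dimmer probe pointed the other way, and with that probe 4 were higher and 2 lower. An unadjusted p under 0.05 was reached by 4 of 9 members, against 50.8%, and 7 differences were above 0 (6 with that probe), against 55.4%.

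These calls were near the threshold and depended on single arrays. Atf4 was at a limma adjusted p of 0.167 without fed polysome 3 (difference 0.19), 0.104 without fed total 2, 0.0815 without fed total 1, 0.0663 without fed polysome 2 and 0.0557 without fed total 3. Shmt2 was at 0.114 without fed polysome 3, 0.107 without fed polysome 2, 0.0941, 0.0697 and 0.0902 without fed total 1, 2 and 3, and 0.0672 with the arrays centred on their median. Without fed total 1 and 3 together it was 0.146 for Atf4, 0.29 for Shmt2 and 0.111 for Asns. Asns was at 0.0939 without fed total 2, 0.078 without fed polysome 3 and 0.0617 without fed total 3. Same-numbered total and polysome arrays within a diet were also fitted as pairs, a pairing inferred from the data. With each pair as a fixed block Trib3 passed too (0.36, limma adjusted p = 0.0298, against 0.211 without the block). Trib3 also passed when only the fed arrays were fitted (limma adjusted p = 0.0498), a fit in which Atf4 did not (0.0579). With the pairs as a random block Psat1 passed (0.19, limma adjusted p = 0.0331, against 0.0583). Psat1 also passed without fed total 1 (0.26, limma adjusted p = 0.0246), with the arrays centred on their median (0.22, 0.0448) and with trend and robust priors (0.0218).

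Psat1 gave opposite answers by probe. On the brighter probe, fed polysome arrays at 12.83, 12.84 and 12.91 stood above fed total arrays at 12.80, 12.62 and 12.58 (0.19 ± 0.077, limma adjusted p = 0.0583). On the dimmer one, fed polysome arrays at 8.97, 9.44 and 9.54 stood below fed total arrays at 9.88, 9.79 and 9.90 (-0.54 ± 0.12, limma adjusted p = 0.00316). The direction of Psat1 on polysomes is therefore not settled by these arrays. The platform table lists both probes under the same transcripts, and which of them follows the Psat1 message was not tested.

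In fasted dams, 1 of 9 members passed against 43.7% of all tested genes. It was Asns, with fasted polysome arrays at 12.64 to 12.69 above fasted total arrays at 12.37 to 12.56 (0.22 ± 0.07 SE, limma adjusted p = 0.0226). Its call was lost without fasted total 3 (limma adjusted p = 0.0876), fasted total 1 (0.0757) or fasted polysome 1 (0.0678). It was also lost with quantile normalization (difference 0.16, 0.0736). Asns was the only member called higher on polysomes in both diets, by nearly the same amount (0.21 and 0.22; 95% interval of the difference between them -0.21 to 0.22). Atf4 overlapped in fasted dams (0.20 ± 0.11, limma adjusted p = 0.185), as did Shmt2 (0.06 ± 0.086, limma adjusted p = 0.624). Trib3 measured 0.04 ± 0.22, Atf3 0.30 ± 0.20, Chac1 -0.05 ± 0.24, Ddit3 -0.10 ± 0.15, Phgdh -0.10 ± 0.099 and Psat1 0.11 ± 0.077, none of them past the threshold. The groups did not overlap for 2 of 9 members, Asns and Psat1, against 52.6% of all tested genes. Both were higher on polysomes by the brighter Psat1 probe, against 31.1%, whereas the dimmer Psat1 probe was lower without overlap (-0.22) and the mean of the probes gave -0.05. An unadjusted p under 0.05 was reached by 1 of 9 members, against 50.7%, and 6 differences were above 0 (5 with the dimmer probe), against 57.7%.

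**Figure D3:**
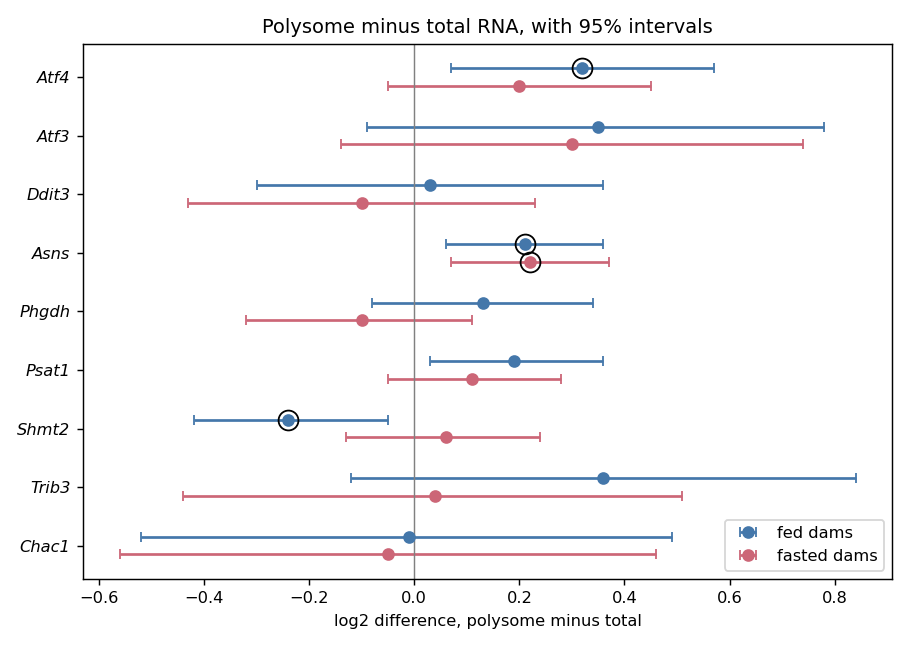
Difference between polysome and total RNA for each gene in fed and fasted dams (points, log2) with 95% intervals of the limma fit; rings mark calls at an adjusted p under 0.05. Asns is ringed in both diets at 0.21 and 0.22, and Atf4 (0.32) and Shmt2 (-0.24) in fed dams only, a difference between diets that did not pass its own test.

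The members also varied between arrays of one group, and some of them varied together. Over all 12 arrays, Atf3 and Trib3 correlated at a Pearson r of 0.85, and their deviations from the group means at 0.83. Atf4 and Ddit3 correlated at 0.53 over the arrays and at 0.87 in their deviations. In fasted total arrays 1 to 3, Trib3 deviated from its group mean by 0.49, 0.13 and -0.62 and Atf3 by 0.42, 0.11 and -0.53. In fed polysome arrays 1 to 3, Ddit3 deviated by -0.30, -0.07 and 0.37, Atf4 by -0.22, -0.04 and 0.26, and Trib3 by -0.26, -0.01 and 0.27. Fed polysome 3 was thus high, and fed polysome 1 low, for the 3 genes.

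Among Atf4, Atf3, Ddit3, Trib3 and Chac1, the 10 pairs had a median r of 0.49 in their deviations, with a range from 0.05 to 0.87. Among the enzymes Asns, Phgdh, Psat1 and Shmt2, the 6 pairs had a median of 0.16, from -0.30 to 0.69. Phgdh followed Trib3 (0.73), Atf3 (0.70) and the enzyme Asns (0.69) more closely than it followed Psat1 (-0.30), the next enzyme of its own pathway. Psat1 stands here by its brighter probe only, and the dimmer probe was not correlated. Chac1 had its highest fed value on array 3 and its lowest on array 2 in both fractions (9.07 and 8.15 in total, 8.83 and 8.0 on polysomes). These correlations are descriptions over 12 arrays that share 4 group means and a common normalization, and same-numbered total and polysome arrays within a diet vary together over all genes.

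**Figure D4:**
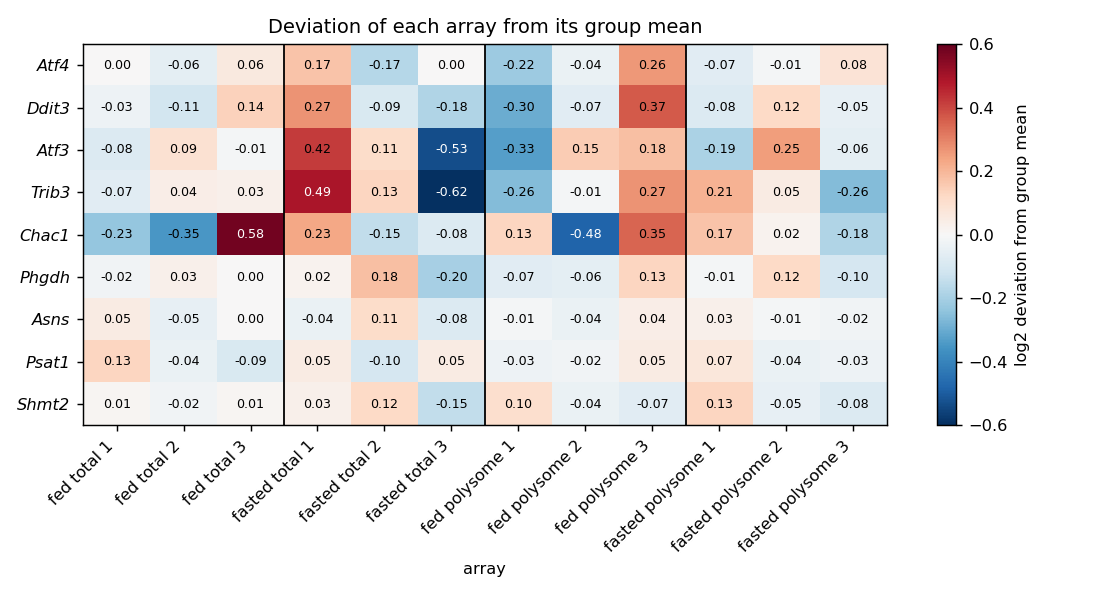
Deviation of each array from the mean of its group for the 9 genes (rows; log2, red above and blue below), with vertical lines between groups of 3 arrays. Trib3 and Atf3 are high in fasted total 1 and low in fasted total 3 (0.49 and -0.62 for Trib3). The enzymes Asns, Psat1 (brighter probe) and Shmt2 vary by at most 0.15 in any array.

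The genes whose levels most resembled each member over the 12 arrays were taken by Pearson r among the tested genes, leaving out symbols that begin with LOC or RGD. For Trib3 they were Doc2a (0.95), Them4 (0.94) and Gmppa (0.92). For Atf4 they were Cbx3 (0.95), Zfyve9 (0.94) and Slc25a25 (0.94), and for Asns Sox18 (0.97), Nsmce1 (0.95) and Lrrc41 (0.95). Atf3 was closest to Junb, a bZIP subunit of AP-1 (0.90), Ddit3 to Prkar1a (0.92), Phgdh to Hpd (0.93), Psat1 to Pbdc1 (0.94) and Shmt2 to Tfg (0.94). Chac1 had the weakest best match, Neurl3 at 0.83. No member was among the 3 closest genes of another.

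Other genes of the pathway were counted on lists, leaving out the members. Of all tested genes, 1.03% passed for fasting in total RNA and 2.01% on polysomes by limma. At such shares, few or no calls would fall on lists of this size. An unadjusted p under 0.05 was reached by 16.2% and 20.9% of all tested genes. Of 22 kinases, phosphatases and factors around eIF2, 0 passed for fasting in total RNA and 0 in polysome RNA by limma, with 2 and 4 at an unadjusted p under 0.05 and a median of -0.03 in each. The kinase genes measured -0.13 ± 0.082 (Eif2ak4, which encodes GCN2) and 0.15 ± 0.078 (Eif2ak3, which encodes PERK) in total RNA. Gcn1, the ribosome-bound activator of GCN2, measured -0.32 ± 0.085 on polysomes (limma adjusted p = 0.0621). Of 25 bZIP partners and other factors, 0 passed in either fraction, with 4 and 6 at an unadjusted p under 0.05 and medians of 0.11 and 0.09. Creb3l3, a liver bZIP factor of the endoplasmic reticulum membrane, came closest at 0.47 ± 0.12 on polysomes (limma adjusted p = 0.0558). Atf5, a close relative of ATF4 that is also held back by upstream reading frames, measured 8.79, 9.05 and 9.31 in fed total and 9.29, 9.89 and 8.97 in fasted total arrays (0.33 ± 0.20, limma adjusted p = 0.457).

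Amino acid synthesis and uptake held no call for fasting either, against 1.03% and 2.01% of all tested genes in total and polysome RNA. Their counts at an unadjusted p under 0.05 stand against 16.2% and 20.9%. Of 27 further enzymes of serine, glycine, proline, asparagine and one-carbon metabolism, 0 passed in total or polysome RNA by limma, with 9 and 5 at an unadjusted p under 0.05 and medians of 0.03 and 0.04. Psph, which completes serine synthesis after Phgdh and Psat1, pointed the other way from Phgdh in total RNA, with 9.06, 9.18 and 9.17 in fed and 8.92, 8.93 and 8.73 in fasted arrays (-0.28 ± 0.081, limma adjusted p = 0.107). Got1, the cytosolic aspartate aminotransferase, measured 0.58 ± 0.16 in total and 0.53 ± 0.16 in polysome RNA (limma adjusted p = 0.0974 and 0.0864). Of 16 amino acid transporters, 0 passed in either fraction, with 6 and 7 at an unadjusted p under 0.05 and medians of 0.11 and -0.07. Slc7a5, the large neutral amino acid carrier, came closest at 0.34 ± 0.081 in total RNA (limma adjusted p = 0.0607). Slc7a11, the cystine carrier, was singled out after its values were seen: it measured 5.96, 6.23 and 7.48 in fed total and 7.75, 8.30 and 7.59 in fasted total arrays (1.33 ± 0.40, limma adjusted p = 0.118), and of its 12 values the one in fed total 1 lay under the filter level.

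Of 21 genes of cytosolic tRNA charging (the aminoacyl-tRNA synthetases and the export factor Xpot), 0 passed for fasting in either fraction, with 2 and 4 at an unadjusted p under 0.05, and their medians were -0.02 and -0.06. Of 30 stress, redox and growth outputs, 1 rose in total RNA, Klhl24, a substrate adaptor of a ubiquitin ligase, from 8.95, 8.96 and 9.11 in fed to 9.73, 9.49 and 9.77 in fasted arrays (0.66 ± 0.14, limma adjusted p = 0.042). On polysomes 1 of the 30 rose, the small GTPase Rit1 (0.35 ± 0.081, limma adjusted p = 0.0433). The list's medians were 0.13 and 0.09, beside 0.001 and 0.016 over all tested genes. In either direction, 13 and 8 of the 30 had an unadjusted p under 0.05, against 16.2% and 20.9% of all tested genes. Of all tested genes, 1.03% passed in total RNA and 2.01% on polysomes by limma. Of 24 endoplasmic reticulum chaperones and XBP1 or ATF6 targets, the co-chaperone Dnajb9 rose in total RNA (0.57 ± 0.12, limma adjusted p = 0.0431) and Dnajc10 fell on polysomes (-0.39 ± 0.092, limma adjusted p = 0.046). The medians of that list were 0.02 and -0.06, with 2 and 5 of its genes at an unadjusted p under 0.05. Klhl24 and Dnajb9 reached a limma adjusted p of 0.147 without fasted total 1, Rit1 0.15 and Dnajc10 0.138 without fasted polysome 3, and the 4 calls were lost in 8, 9, 9 and 11 of 12 such fits.

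The lists stood further apart between fractions. Of all tested genes, 24.1% were called higher and 19.4% lower on polysomes in fed dams, and 25.5% and 18.2% in fasted dams. In fed dams, 18 of the 24 endoplasmic reticulum genes were lower on polysomes and 2 higher, with a median of -0.41, and in fasted dams the counts were the same with a median of -0.52 (83.3% called in each diet, against 43.5% and 43.7%). Sel1l, Ssr1, Calr and Pdia3 measured -0.74, -0.71, -0.65 and -0.57 in fed dams. Of the 16 amino acid transporters, 8 were lower and 1 higher on polysomes in fed dams (median -0.25, 56.2% called), and 13 were lower and 0 higher by limma in fasted dams (median -0.38, 81.2% called, with 13 at an unadjusted p under 0.05). Several sets of cell type markers were also lower on polysomes in fed dams: 9 of 10 mesenchymal and stellate genes (median -0.84), 7 of 10 for macrophages (-0.69), 5 of 7 for endothelium (-0.59), 5 of 10 for hepatocytes (-0.16) and 2 of 10 for exocrine pancreas (-0.50), with 0 higher in each by limma. Their counts at an unadjusted p under 0.05, in either direction, were 9, 7, 6, 5 and 3. Erythroid markers split 2 higher and 2 lower of 7 (-0.04) and neutrophil markers 2 higher and 3 lower of 9 (-0.31). The part of these markers in the lists was not tested. Of the 27 enzymes, 6 were higher and 3 lower in fed dams (median 0.08, 33.3% called, below the share of all tested genes) and 5 higher and 4 lower in fasted dams (median 0.07, 33.3%), with Psph at 0.33 ± 0.081 and Mthfd2, the mitochondrial enzyme that carries on from Shmt2, at 0.29 ± 0.079 (limma adjusted p = 0.00474 and 0.00914) in fed dams. Of the 22 genes around eIF2, 10 were higher and 5 lower in fed dams (median 0.20, 68.2% called) and 10 higher and 6 lower in fasted dams (median 0.14, 72.7%). The eIF2B subunit gene Eif2b2 measured 0.69 and Eif2s1, the phosphorylated subunit itself, -0.89 in fed dams. Of the 25 factors, 8 were higher and 4 lower in fed dams (median 0.11, 48.0% called) and 6 higher and 4 lower in fasted dams (median 0.18, 40%), shares near that of all tested genes. Nupr1 measured 0.83 and Xbp1 -0.74 in fed dams. The 21 tRNA charging genes split 3 higher and 3 lower in fed dams (median -0.01, 28.6%) and 1 higher and 2 lower in fasted dams (median -0.02, 14.3%). The 30 stress, redox and growth outputs split 6 higher and 3 lower in fed dams (median 0.04, 30.0%) and 8 higher and 7 lower in fasted dams (median 0.03, 50%). The members had a median of 0.19 in fed and 0.06 in fasted dams, beside 0.042 and 0.054 over all tested genes. The difference between members and these lists was not tested.

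A list of messages with upstream reading frames, described as kept on ribosomes when eIF2 is phosphorylated, holds Atf4 and Ddit3 themselves. It was written from general knowledge, and Pcna, Hspa5 and Cat are its least certain entries. Ppp1r15a, the eIF2 phosphatase subunit GADD34, measured 10.03 to 10.07 in fed total and 10.40 to 10.45 in fed polysome arrays (0.37 ± 0.091, limma adjusted p = 0.00528), and 0.41 ± 0.091 in fasted dams (limma adjusted p = 0.00294). Atf5 measured 0.74 ± 0.20 in fed and 0.62 ± 0.20 in fasted dams (limma adjusted p = 0.00886 and 0.0236). Slc35a4 was also called higher, at 0.66 in fed and 0.57 in fasted dams. Called lower were Hspa5 in both diets (-0.41 and -0.44), Pcna in fed dams (-0.46) and Slc7a1 in fasted dams (-0.57). Over the 17 tested genes of that list, 7 were higher and 3 lower in fed dams and 4 higher and 4 lower in fasted dams, with medians of 0.18 and 0.11. That is 58.8% and 47.1% called, against 43.5% and 43.7% of all tested genes. Of the same genes, 0 passed for fasting in total RNA, polysome RNA or the difference between effects by limma, with 2, 2 and 0 of them at an unadjusted p under 0.05. Over all tested genes, 1.03%, 2.01% and 0.0% passed in these comparisons, and 16.2%, 20.9% and 5.4% had an unadjusted p under 0.05.

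**Figure D5:**
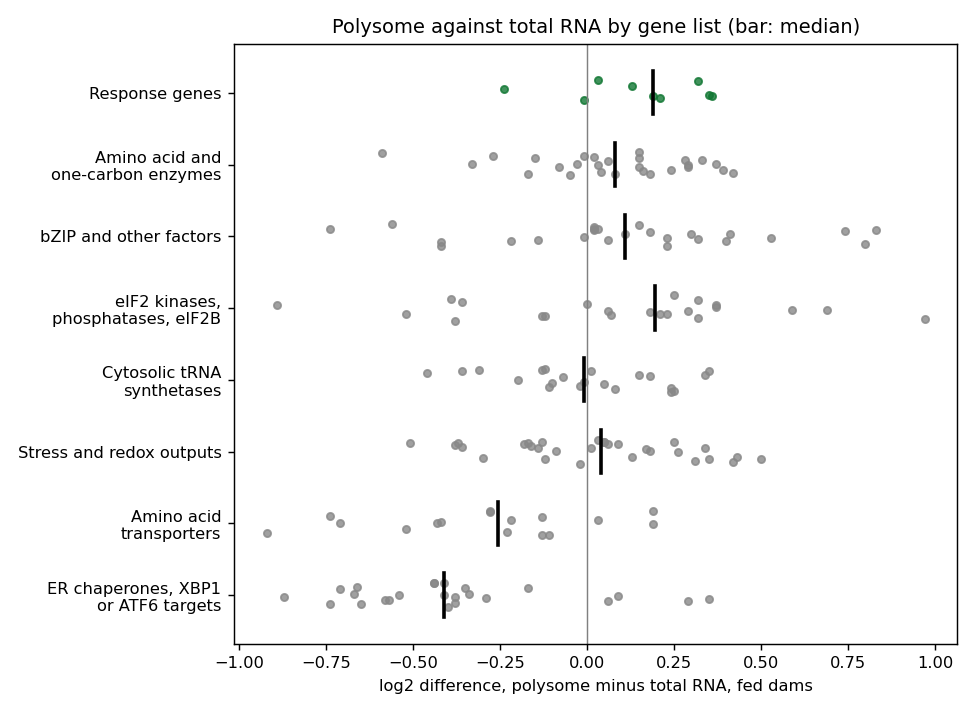
Difference between polysome and total RNA in fed dams for each tested gene (points, log2), by list, with the median as a bar; the 9 response genes are green. Their median is 0.19, the endoplasmic reticulum list lies at -0.41 and the amino acid transporters at -0.25.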

How the data were processed

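Each of 12 fetal rat liver RNA samples went onto 1 Affymetrix Rat Gene 1.0 ST array. The authors deposited 1 intensity per probe and array, which per the submitters' processing notes came from RMA (version not stated). The intensities ran from 3.616 to 21343.6, a linear scale, and the deposited values were used as log2(value + 1). Of 28826 probes, 15209 had exactly 1 gene symbol, standing for 14497 genes; symbols were updated through Entrez identifiers (15178 matched), and the brightest probe of a gene was used. Genes with a mean above the 40th percentile of all probes (6.07 log2) were tested, 10174 in all.

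With limma 3.58.1 (R 4.3.3), lmFit estimated the 4 group means from the 12 arrays together and eBayes moderated the variances (5.16 prior degrees of freedom added to 8 residual ones), with two-sided p-values and Benjamini-Hochberg adjustment. The fit was run on simulated arrays drawn independently, without pairing and with 1 spread per gene. Only 50 genes were changed at each size, far fewer than were called between fractions in the data (43.5% in fed dams). The fit recovered 42% to 58% of 1.3-fold changes and 96% to 98% of 2-fold changes between 2 groups. For the difference between effects it recovered 20% and 88%. Small changes can thus be missed. These rates are for genes drawn from all those tested, whose median SE between 2 groups was 0.0945. The SE of the members ran from 0.07 (Asns) to 0.24 (Chac1), with 0.22 for Trib3, so the rates need not hold for each member. Replicate numbers were checked by correlating deviations from group means: same-numbered total and polysome arrays within a diet gave 0.154 to 0.362 in all 6 pairs, so the numbers were taken to pair these fractions, which is an inference from the data, and fed and fasted arrays gave -0.145 to 0.253 in 12 pairs. Alternatives covered the filter, scaling, log scale, probe choice, priors, arrays fitted, replicate blocks and leaving out each array; the dimmer Psat1 probe and leaving out fed total 1 and 3 together were chosen after seeing the data.

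Named were all members; from each list and comparison at most the 4 called genes with the smallest p and no overlap, or else the 2 with the smallest p; and the 3 genes most like each member; a few others are given with values for their role. The members, lists and rules were chosen with earlier results of these data known. Promoter windows come from RefSeq (GRCr8). Figures used Python 3.11.15 and matplotlib 3.10.9.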

Additional observations from a re-analysis of the deposited data

How the results depend on the processing

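The number of arrays limits every comparison. Called members numbered 1 for fasting in total RNA, and 0 with no filter on dim probes, with only the arrays compared, or without fed total 1 and 3 together; leaving out 1 array gave 0 to 1. On polysomes they numbered 0, and 0 to 1 when leaving out 1 array. For the difference between fasting effects they numbered 0 throughout these fits. For polysome against total RNA they numbered 3 in fed dams, 3 with only the arrays compared (Trib3 in place of Atf4), 1 with no filter, 0 without fed total 1 and 3 together and 0 to 3 when leaving out 1 array; in fasted dams 1, and 0 with quantile normalization or only the arrays compared, and 0 to 1 when leaving out 1 array.

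Over all genes, the fasting count in total RNA was 105, against 57 with no filter, 42 with only the arrays compared, 3 without fed total 1 and 3 together, and 17 to 147 when leaving out 1 array. On polysomes it was 205, against 93 with no filter, 394 with trend and robust priors, 40 with only the arrays compared, 309 with the replicate number as a block, 75 without fed total 1 and 3 together, and 11 to 755 when leaving out 1 array. With each same-numbered pair of arrays within a diet as a fixed block, 1 gene passed for the difference between effects, against 0. Polysome against total RNA in fed dams gave 4425, and 2166 without fed total 1 and 3 together; the ranges when leaving out 1 array were 3661 to 4541 in fed and 3614 to 4655 in fasted dams. Blocks on the pairing changed 2 calls of members, those of Trib3 and Psat1 on polysomes in fed dams given above. Among listed genes, with the replicate number as a block, Dnajb9 no longer passed in total RNA and Gpt passed on polysomes. Creb3l3 passed on polysomes with the same-numbered pairs as a random block.

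Some differences near 0 changed sign, and the cause was not tested. With the mean of its probes and with its dimmer probe, Psat1 measured -0.03 and -0.11 for fasting in total RNA, 0.09 and 0.21 on polysomes, 0.12 and 0.32 for the difference between effects, -0.17 and -0.54 for polysome against total RNA in fed dams and -0.05 and -0.22 in fasted dams. Quantile normalization gave -0.04 for the difference between effects of Asns and -0.01 for Trib3 on polysomes in fasted dams, and median centring gave 0.02 for Chac1 on polysomes in fed dams. Without fed total 1 and 3 together, the difference between effects was 0.04 for Atf3, -0.04 for Asns and 0.02 for Stbd1, and Chac1 on polysomes in fed dams was 0.33. Leaving out 1 array, fasting in total RNA ranged from -0.12 to 0.02 for Shmt2, and on polysomes from -0.13 to 0.11 for Atf4 and from -0.09 to 0.33 for Chac1. The difference between effects ranged from -0.23 to 0.01 for Atf4, -0.32 to 0.16 for Atf3, -0.28 to 0.06 for Ddit3, -0.03 to 0.07 for Asns and -0.33 to 0.14 for Chac1. Polysome against total RNA ranged from -0.16 to 0.18 for Ddit3 and -0.19 to 0.28 for Chac1 in fed dams, and in fasted dams from -0.19 to 0.03 for Ddit3, -0.02 to 0.12 for Shmt2, -0.27 to 0.28 for Trib3 and -0.13 to 0.07 for Chac1.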
